A study of Mus musculus with 24 samples.

Results

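The genes described here encode the proteins that coat lipid droplets, join them or help them form: the perilipins Plin1 to Plin5, the CIDE proteins Cidea, Cideb and Cidec, and the FIT proteins Fitm1 and Fitm2. They were chosen with earlier results of these data known and taken by gene symbol, and all 10 were found among the 24137 genes of the joined count tables. Whole-liver RNA of 24 mice was sequenced, 1 library per mouse. All 4 groups on the diet named HFCF had n = 5, received that diet for 34 weeks and were labelled with non-alcoholic steatohepatitis, fatty liver with inflammation. HF_TZD_KO mice were labelled as hepatocyte-specific PPARγ knockouts and ate rosiglitazone maleate, a thiazolidinedione that activates PPARγ, in the HFCF diet over the last 8 weeks. HF_TZD_C mice were controls of genotype that ate rosiglitazone in the same way. HF_KO mice carried the knockout without the drug, and HF_C mice had neither. In both knockout groups the gene was deleted after 24 weeks of diet, so its loss lasted 10 weeks, and the labels used here do not give the Cre driver or vector. LF_C mice (n = 4) had the control genotype, the diet named LFCF (low fat), no drug and the label healthy. All mice were adult when the diets began, and their strain, sex and exact age are not used here.

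Lipid droplets store triglyceride behind a single layer of phospholipid. FIT proteins sit in the membrane of the endoplasmic reticulum and take part in the budding of new droplets, perilipins cover the droplet surface and limit the access of lipases, and CIDE proteins gather where droplets touch and pass lipid from one to the other, which makes droplets larger. PPARγ is a nuclear receptor that binds DNA as a pair with RXR at direct repeats of a short half-site, and in adipocytes it drives many genes of fat storage. In liver, Plin2 is the abundant perilipin of hepatocytes, while Plin1, Plin4, Cidea and Cidec are best known from adipose tissue.

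The bases before the transcription start of 4 genes are shown so that a reader can see what was searched for the PPARγ-RXR motif. Plin2 was the most abundant of the members, and Plin4, Cidec and Fitm2 were among those that fell in both knockout comparisons. The sequences are RefSeq's for GRCm38.p6, written 5′ to 3′ on the minus strand, where all 4 genes lie, and each is the 250 bases that end before a RefSeq start. Cidec has another RefSeq start, whose bases are not shown. Plin2 lies at chr4:86670060-86670309, Plin4 at chr17:56109783-56110032, Cidec at chr6:113435761-113436010 and Fitm2 at chr2:163472630-163472879. Capitals mark the match to the motif.
Plin2: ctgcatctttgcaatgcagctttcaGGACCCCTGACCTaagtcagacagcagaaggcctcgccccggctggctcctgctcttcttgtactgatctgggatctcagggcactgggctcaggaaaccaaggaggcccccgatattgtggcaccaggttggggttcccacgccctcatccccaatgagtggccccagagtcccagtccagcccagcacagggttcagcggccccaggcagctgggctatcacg
Plin4: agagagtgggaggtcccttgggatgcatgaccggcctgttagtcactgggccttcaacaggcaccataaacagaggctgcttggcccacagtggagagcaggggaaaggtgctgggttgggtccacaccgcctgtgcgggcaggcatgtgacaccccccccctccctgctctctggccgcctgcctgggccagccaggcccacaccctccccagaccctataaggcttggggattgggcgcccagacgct
Cidec: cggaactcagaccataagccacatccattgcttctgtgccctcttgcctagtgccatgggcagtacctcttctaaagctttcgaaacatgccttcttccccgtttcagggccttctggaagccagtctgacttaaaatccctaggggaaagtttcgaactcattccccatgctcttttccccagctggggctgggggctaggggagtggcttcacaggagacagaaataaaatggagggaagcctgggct
Fitm2: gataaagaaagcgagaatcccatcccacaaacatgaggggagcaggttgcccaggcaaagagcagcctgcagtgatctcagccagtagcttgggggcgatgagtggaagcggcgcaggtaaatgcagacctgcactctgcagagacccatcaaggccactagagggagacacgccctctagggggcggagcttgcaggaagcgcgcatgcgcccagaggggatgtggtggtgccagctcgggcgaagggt
The motif was the half-site AGGTCA, any 1 base, and AGGTCA again, on both strands with at most 2 mismatches over its 12 fixed bases, in windows of 300 bases (250 before the start and 50 after it). RefSeq windows were matched for all of the 10 genes but Cidea, with 11 starts in all. Plin2 held the match shown, on the strand opposite to the gene, with 2 mismatches and its first base 225 bases before the start. Among all 32851 RefSeq windows of that length, 3.86% held a match with at most 2 mismatches, 0.554% with at most 1 and 0.0396% with 0. An exact AGGTCA alone, on either strand, stood in the windows of Plin2, where it overlaps the match above, and Plin5, against 16.3% of all windows. These are matches of letters in a short window and do not show whether PPARγ binds there.

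Gene positions are those of the deposited tables, on GRCm38. The libraries held 19.5 to 28.7 M counted reads. Values are CPM (counts divided by the library total in M, scaled by TMM over the 24 libraries), changes are log2 fold changes with the first-named group on top, and a gene passed where edgeR's adjusted p over all tested genes was under 0.05. Pparg itself was higher, not lower, in libraries labelled knockout: its mean was 64.1 ± 5.32 CPM in HF_KO, against 32.4 ± 2.66 CPM in HF_C (SD, n = 5 each), and 46.6 ± 12.4 CPM in HF_TZD_KO and 27.0 ± 2.35 CPM in HF_TZD_C. By edgeR it passed with 0.99 (adjusted p = 4.5e-05) in HF_KO against HF_C and 0.79 (adjusted p = 0.0042) in HF_TZD_KO against HF_TZD_C. A count over the whole gene does not show whether part of it was deleted, so the knockout groups rest on their labels. Leaving out LF_C replicate 2, which was the highest of its group for 5 of the 9 members with levels to compare (Plin4, Plin5, Cidea, Cidec and Fitm2), changed several values and is named where it did. LF_C replicate 4 was the lowest of its group for 6 of the 9.

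Plin1 (ENSMUSG00000030546, chromosome 7, 79721164 to 79732776, minus strand), the perilipin of adipocytes that guards stored fat from lipases, had 9 counts in all, in 4 of the 24 libraries, and its highest level was 0.109 CPM, so it was in no test. In a single library a count of 0 allows up to 0.0984 to 0.164 CPM, which covers counting error only. Adipoq, the defining adipocyte marker, was at 0 in every HF_TZD_KO, HF_KO and HF_C library and reached at most 0.0701 CPM in HF_TZD_C and 0.0483 CPM in LF_C. The 8 of 9 listed adipocyte markers in the tables summed to 9.38 to 24.1 CPM in HF_TZD_KO, 117 to 223 CPM in HF_TZD_C, 9.59 to 12.8 CPM in HF_KO, 14.0 to 28.9 CPM in HF_C and 9.23 to 24.6 CPM in LF_C. Cfd (adipsin) made up 102 to 205 CPM of the HF_TZD_C sums. The 6 skeletal muscle markers in the tables summed to at most 1.98 CPM, and Ucp1, the defining marker of brown fat, reached at most 0.0809 CPM. Of the 4 brown fat markers Elovl3, which liver also expresses, carried nearly the whole sum, up to 145 CPM. Plin1 and Adipoq were thus at or near 0 in the libraries where Plin4, Cidea and Cidec were high. Other markers of that list differed: Adig had 0.386 to 1.14 CPM in HF_TZD_C and at most 0.131 CPM in HF_C. Retn reached 0.251 CPM in HF_TZD_C and 0.0383 CPM in HF_C. Cfd had 2.92 to 20.8 CPM in HF_C and 0.0366 to 0.445 CPM in HF_KO. Adrb3, Tusc5, Slc7a10 and Nnat overlapped between HF_TZD_C and HF_C. The part of adipocyte RNA in the members' changes was not tested.

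Levels of different genes were compared as CPM per kilobase of the deposited gene length. Plin2 made up most of the 10 genes' summed level in every group: 71.5 ± 3.13% in HF_TZD_KO, 58.3 ± 1.33% in HF_TZD_C, 73.7 ± 1.92% in HF_KO, 63.9 ± 2.56% in HF_C and 75.8 ± 3.28% in LF_C (mean ± SD over mice). Cidec came second in 3 groups, with 15.8 ± 0.598% in HF_TZD_C, 7.06 ± 0.382% in HF_KO and 12.2 ± 1.56% in HF_C. It made up 4.50 ± 1.70% in HF_TZD_KO and 2.82 ± 1.78% in LF_C. Plin4 held 0.810 ± 0.295% in HF_TZD_KO, 4.45 ± 0.295% in HF_TZD_C, 0.775 ± 0.311% in HF_KO, 3.08 ± 0.852% in HF_C and 1.62 ± 1.02% in LF_C. The summed level itself was 532 ± 82.5 CPM per kilobase in HF_TZD_KO, 858 ± 51.1 in HF_TZD_C, 685 ± 132 in HF_KO, 826 ± 123 in HF_C and 798 ± 75.2 in LF_C. The knockout groups thus had a mix dominated by Plin2, with shares of Plin4, Cidea and Cidec nearer to those of LF_C than to those of their controls.

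**Figure D1:**
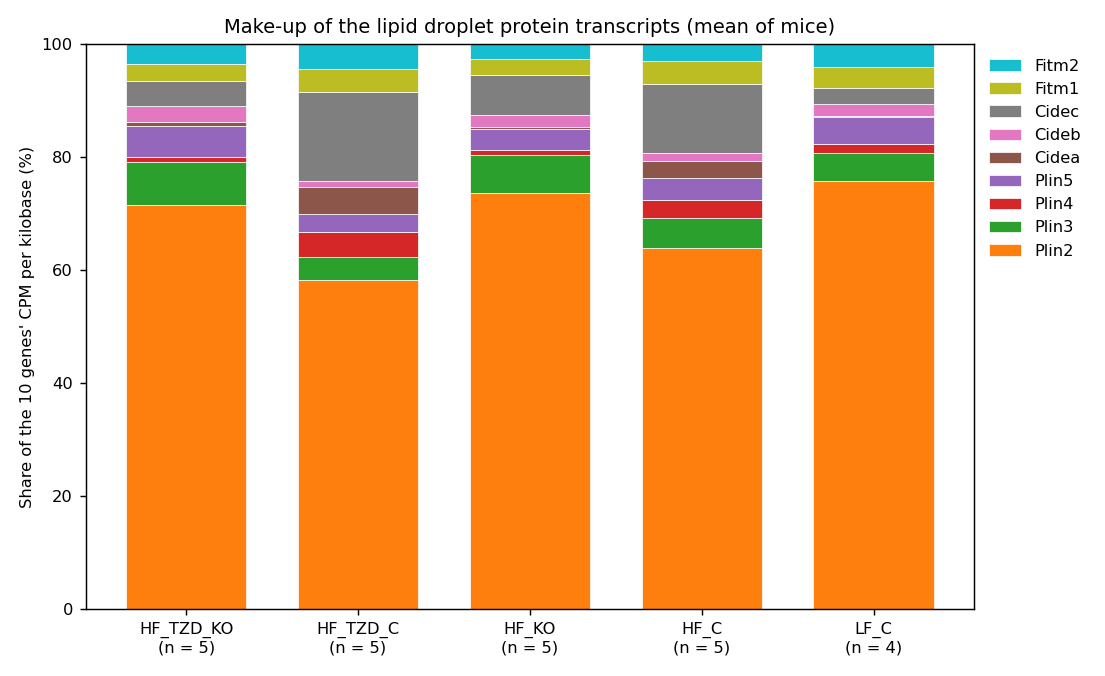
Stacked bars give the mean share (%) of each gene in the summed CPM per kilobase of the 10 lipid droplet genes, per group (n = 5, LF_C n = 4); Plin1 is too low to draw. The Cidec share is 4.50% in HF_TZD_KO, 15.8% in HF_TZD_C, 7.06% in HF_KO, 12.2% in HF_C and 2.82% in LF_C.

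The effect of the knockout on these transcripts in livers labelled with steatohepatitis was read from HF_KO against HF_C. Its effect under the drug was read from HF_TZD_KO against HF_TZD_C. In HF_KO against HF_C, 5 of the 9 tested members fell (Plin4, Cidea, Cidec, Fitm1 and Fitm2), while 1.02% of 14844 genes passed in either direction. The median over the members was -0.46, against 0 over all genes. Hepatocyte markers summed to 68800 to 77600 CPM in HF_KO and 56900 to 66100 CPM in HF_C. Of these 10 markers edgeR called 0 and DESeq2 called 1. In HF_TZD_KO against HF_TZD_C the same 5 fell and Cideb rose, while 16.3% of 14602 genes passed, and the members' median was -1.04. Markers of other cell types moved in that comparison: 8 of 10 hepatocyte markers rose, and the stellate cell markers Col3a1 (-1.19, adjusted p = 0.00772) and Col1a1 (-1.09, adjusted p = 0.0206, lost without HF_TZD_C replicate 2) fell, 2 of 8 on that list. Summed stellate cell markers ran from 280 to 660 CPM in HF_TZD_KO and from 688 to 1100 CPM in HF_TZD_C. Of 10 macrophage markers edgeR called 0, with 6 at an unadjusted p under 0.05 and a median of -0.65, and DESeq2 called 2, with sums of 302 to 797 CPM in HF_TZD_KO and 696 to 942 CPM in HF_TZD_C. In bulk RNA, fewer cells of a type and less RNA per cell cannot be told apart, and the part of these markers in the members' changes was not tested. Rosiglitazone in control mice (HF_TZD_C against HF_C) raised Plin4, Cidec and Fitm2 and lowered Plin3, where 5.3% of 14937 genes passed. Rosiglitazone in knockout mice (HF_TZD_KO against HF_KO) passed for 0 of the 9 members, where 0.735% of 14559 genes passed. Plin2, Cidec and Fitm1 had an unadjusted p under 0.05 there, and DESeq2 also called 0. The diet (HF_C against LF_C) raised Cidea and Cidec and lowered Fitm2, where 40.6% of 14772 genes passed. The comparisons that share a group of mice (HF_C stands in 3 of them) are not independent of each other.

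**Figure D2:**
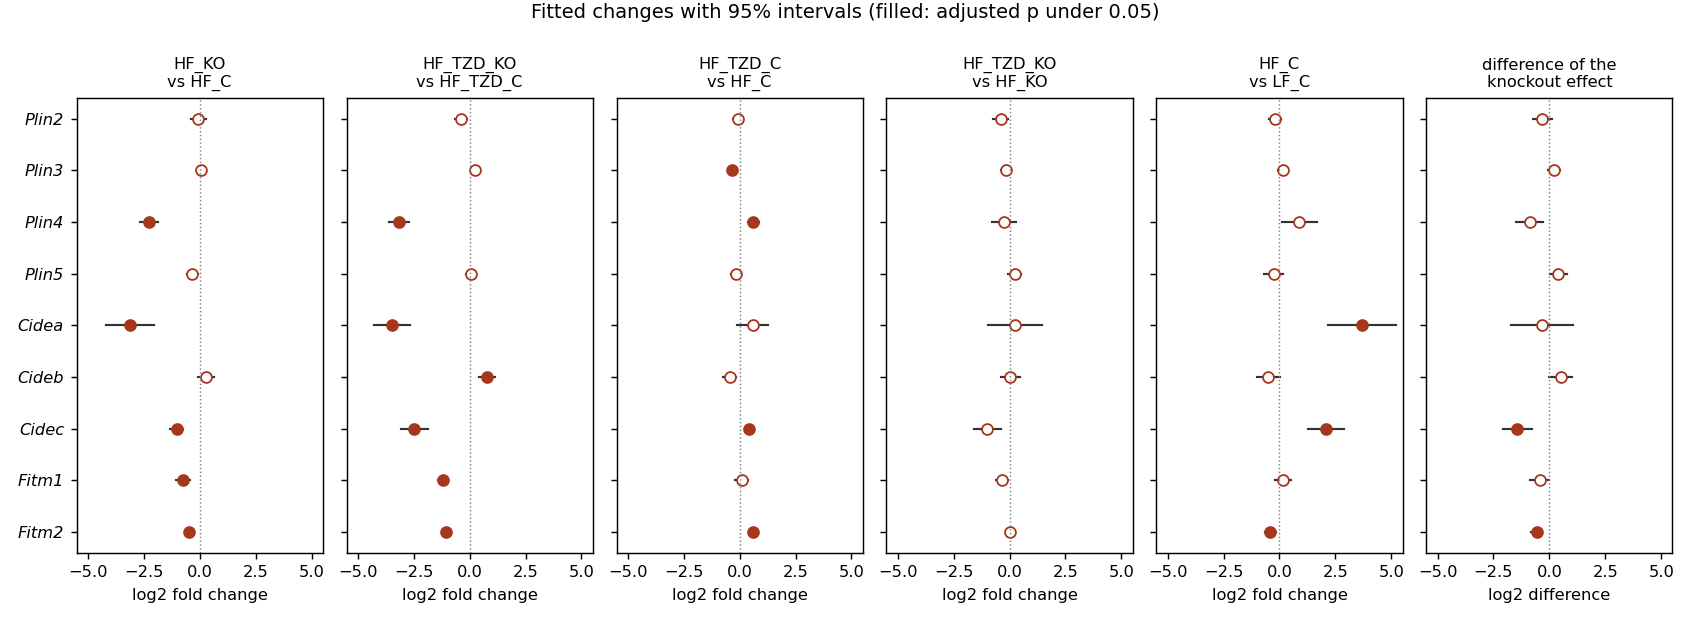
Each panel is a comparison, with the fitted log2 fold change of each gene (points; filled where adjusted p was under 0.05) and its 95% interval (lines); the last panel is the knockout effect with rosiglitazone minus that without. Plin4, Cidea, Cidec, Fitm1 and Fitm2 lie left of 0 and are filled in both knockout panels.

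Plin4 (ENSMUSG00000002831, chromosome 17, 56100591 to 56109803, minus strand), a perilipin that moves between cytosol and young droplets and is abundant in white fat, was the perilipin that fell most with the knockout. By replicate it had 35.4, 27.3, 20.9, 26.0 and 12.5 CPM in HF_TZD_KO mice, against 222, 205, 245, 222 and 204 CPM in HF_TZD_C mice. Without the drug it had 45.0, 22.4, 25.2, 25.3 and 29.3 CPM in HF_KO mice, against 167, 109, 124, 183 and 133 CPM in HF_C mice. LF_C mice had 69.0, 156, 36.5 and 44.2 CPM. Every knockout library lay below every control library on HFCF, and every HF_TZD_C library above every HF_C one, while the range of LF_C reached into that of HF_C through replicate 2. The knockout log2 fold change was -3.16 (SE 0.21, adjusted p = 2.07e-06, 8.95-fold lower) under rosiglitazone and -2.27 (SE 0.19, adjusted p = 5.71e-05, 4.84-fold lower) without it. Rosiglitazone gave 0.62 (SE 0.12, adjusted p = 0.00926) in control mice, a call lost in a single fit of all 24 libraries (adjusted p = 0.335), and -0.26 (95% interval -0.79 to 0.27) in knockout mice. Plin4 shares 6 bases with Hdgfrp2 on the other strand, and reads from shared bases cannot be told apart because the libraries keep no strand.

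Plin2 (ENSMUSG00000028494, chromosome 4, 86648386 to 86670060, minus strand), the main coat protein of hepatocyte droplets, was high everywhere and moved little. It had 864, 506, 765, 717 and 755 CPM in HF_TZD_KO mice, against 930, 843, 1020, 916 and 1020 CPM in HF_TZD_C mice. Without the drug it had 808, 814, 952, 1310 and 896 CPM in HF_KO mice, against 814, 1230, 842, 1010 and 1090 CPM in HF_C mice. LF_C mice had 1130, 1190, 1230 and 1010 CPM. The ranges of neighbouring groups overlapped throughout, and the lowest group mean was that of HF_TZD_KO. Its log2 fold change was -0.39 (SE 0.12) in HF_TZD_KO against HF_TZD_C, with an adjusted p of 0.0505 that missed the threshold, and -0.06 (95% interval -0.37 to 0.26) in HF_KO against HF_C. The first of these passed with DESeq2 (adjusted p = 0.0211) and with library totals alone (0.0053), and also without HF_TZD_KO replicate 1, 2 or 5, at an adjusted p down to 0.0266.

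Plin3 (ENSMUSG00000024197, chromosome 17, 56278962 to 56290511, minus strand), a cytosolic perilipin that covers new droplets in many tissues, passed in 1 comparison of the HFCF groups. It had 68.1 to 77.5 CPM in HF_TZD_C, all below the 84.2 to 105 CPM of HF_C, giving -0.35 on the log2 scale (SE 0.06, adjusted p = 0.00604). Its ranges were 69.9 to 98.6 CPM in HF_TZD_KO, 87.8 to 118 CPM in HF_KO and 74.5 to 95.0 CPM in LF_C. Plin5 (ENSMUSG00000011305, chromosome 17, 56111601 to 56117596, minus strand), which tethers droplets to mitochondria in oxidative tissues, passed in no comparison of the HFCF groups: by edgeR its unadjusted p was under 0.05 in HF_KO against HF_C (-0.34, adjusted p = 0.273) and in the test of the difference described later (0.40, adjusted p = 0.246), and DESeq2 called it in none of them. It had 45.4 to 68.1 CPM in HF_TZD_KO, 48.7 to 63.1 CPM in HF_TZD_C, 38.0 to 58.0 CPM in HF_KO, 49.8 to 69.4 CPM in HF_C and 44.6 to 106 CPM in LF_C. Plin4 and Plin5 are neighbours on chromosome 17, both on the minus strand, yet their ratio per kilobase ranged widely, at 0.147 ± 0.0489 in HF_TZD_KO, 1.38 ± 0.129 in HF_TZD_C, 0.206 ± 0.0449 in HF_KO, 0.787 ± 0.122 in HF_C and 0.357 ± 0.191 in LF_C.

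**Figure D3:**
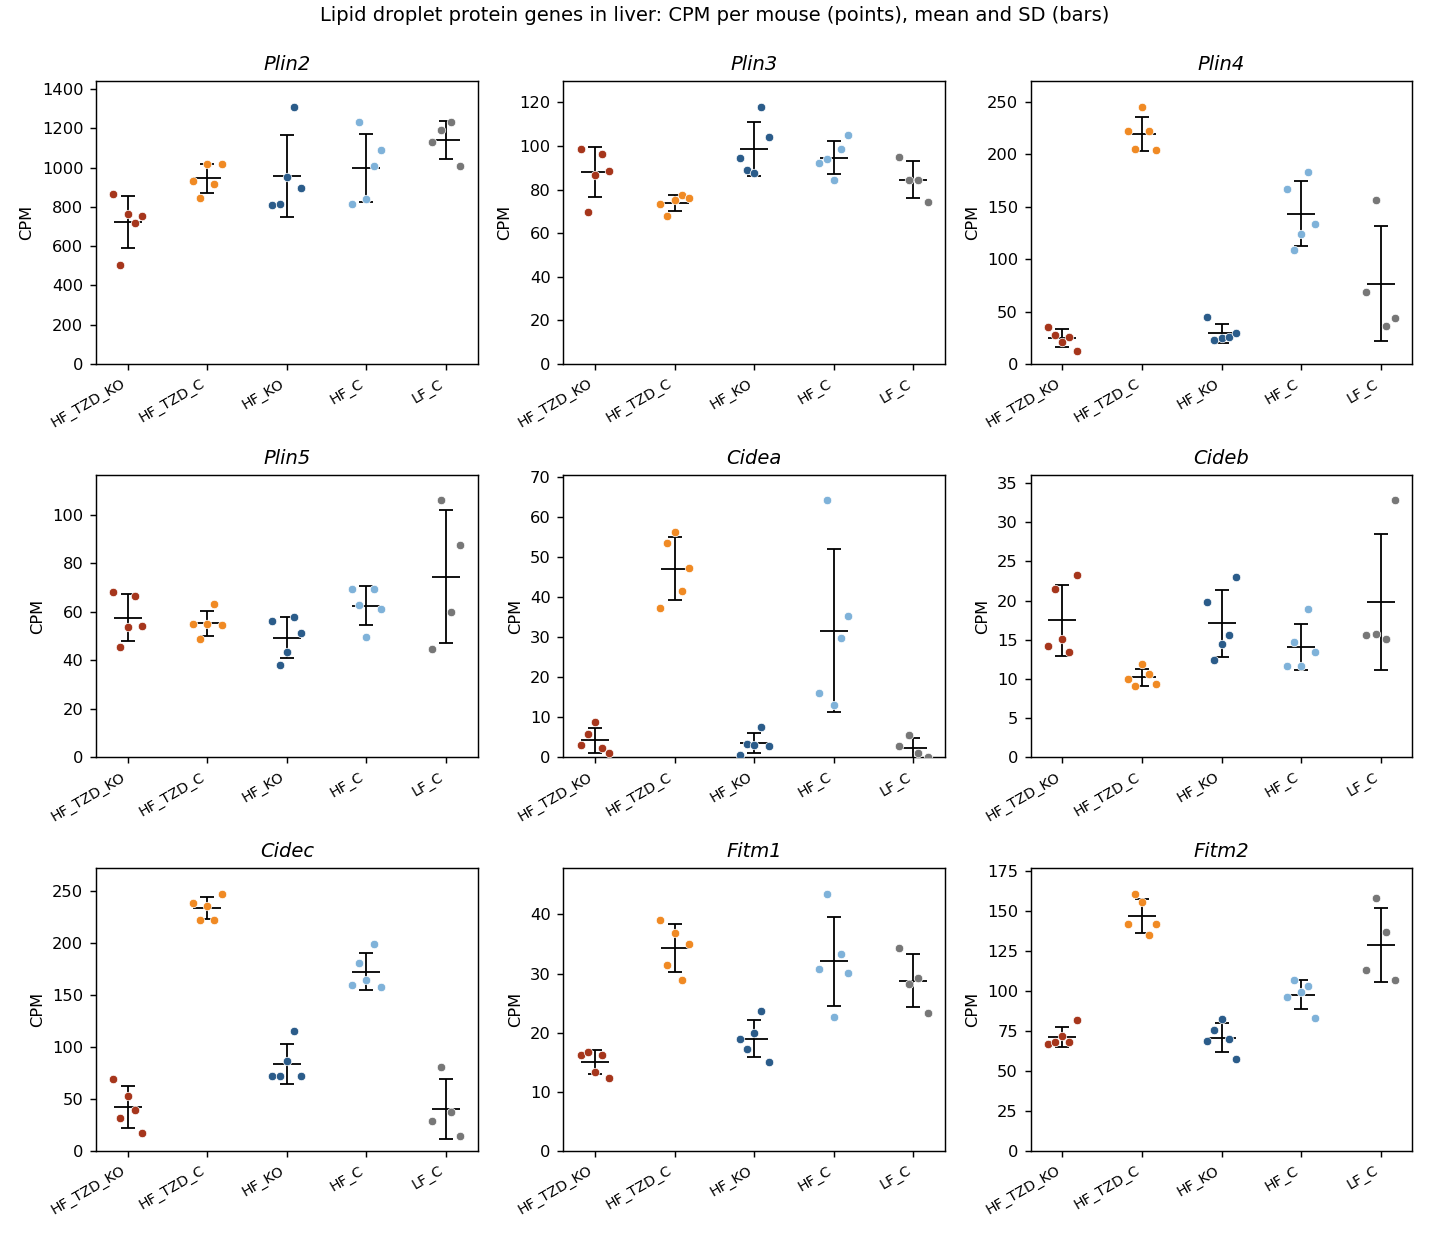
Points are the CPM of each gene in each mouse, with the group mean and SD as bars, and each panel has its own axis from 0. For Cidec and Fitm2 all knockout points lie below all points of the control genotype on HFCF, and for Plin2 all groups overlap with a neighbour.

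Cidec (ENSMUSG00000030278, chromosome 6, 113424634 to 113435760, minus strand), known as Fsp27 in mouse, gathers at droplet contacts and gives large droplets. It had 69.4, 31.7, 52.4, 39.2 and 16.9 CPM in HF_TZD_KO mice, against 238, 222, 235, 222 and 247 CPM in HF_TZD_C mice. Without the drug it had 71.7, 71.9, 86.7, 115 and 72.2 CPM in HF_KO mice, against 159, 180, 164, 199 and 157 CPM in HF_C mice. LF_C mice had 28.5, 80.9, 37.5 and 14.5 CPM. From low to high, the groups ran LF_C, HF_TZD_KO, HF_KO, HF_C and HF_TZD_C, and the only overlaps were those of LF_C with both knockout groups. The knockout log2 fold change was -2.47 (SE 0.28, adjusted p = 8.15e-05, 5.54-fold lower) under rosiglitazone and -1.03 (SE 0.13, adjusted p = 0.00158, 2.05-fold lower) without it. Rosiglitazone gave 0.44 (SE 0.07, adjusted p = 0.00265) in control mice. In knockout mice every treated library lay below every untreated one, but the log2 fold change of -0.99 (SE 0.29) did not pass (adjusted p = 0.124). It passed when HF_TZD_KO replicate 1 was left out (adjusted p = 0.0446). In a single fit of all 24 libraries, which share 1 estimate of the spread, Cidec no longer passed for the knockout without the drug (adjusted p = 0.18) or for the drug in controls (adjusted p = 0.577).

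Cidea (ENSMUSG00000024526, chromosome 18, 67343564 to 67367794, plus strand), a relative of Cidec known from brown fat, was low in LF_C and in both knockout groups. It had 3.15, 5.87, 8.85, 2.31 and 1.13 CPM in HF_TZD_KO mice, against 37.4, 53.5, 56.3, 41.5 and 47.3 CPM in HF_TZD_C mice. Without the drug it had 0.728, 3.45, 3.22, 7.69 and 2.78 CPM in HF_KO mice, against 16.1, 64.3, 13.2, 29.8 and 35.3 CPM in HF_C mice. LF_C mice had 2.90, 5.57, 1.10 and 0 CPM, where a count of 0 in replicate 4 allows up to 0.149 CPM. The HF_C libraries were far apart from one another and the HF_TZD_C libraries close together, so that these control groups overlapped. The knockout log2 fold change was -3.47 (SE 0.38, adjusted p = 6.38e-05) under rosiglitazone and -3.13 (SE 0.50, adjusted p = 0.00945) without it. Rosiglitazone gave 0.58 (95% interval -0.13 to 1.28) in controls, which passed only without HF_C replicate 2 (1.00, adjusted p = 0.0307). Cidea shares 540 bases with B430212C06Rik on the other strand, whose mean count was 52.4 in HF_TZD_KO, 121 in HF_TZD_C, 95.6 in HF_KO, 95.2 in HF_C and 22.8 in LF_C.

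Cideb (ENSMUSG00000022219, chromosome 14, 55754045 to 55758458, minus strand), the CIDE protein of hepatocytes, which takes part in loading lipid onto VLDL, went the other way. It had 14.2, 21.5, 15.1, 13.5 and 23.3 CPM in HF_TZD_KO mice, against 10.0, 9.16, 11.9, 10.7 and 9.40 CPM in HF_TZD_C mice. These groups did not overlap, and the log2 fold change was 0.77 (SE 0.16, adjusted p = 0.00503). Without the drug the ranges were 12.4 to 23.0 CPM in HF_KO and 11.6 to 18.9 CPM in HF_C, with a log2 fold change of 0.29 (95% interval -0.08 to 0.66). Rosiglitazone in control mice gave -0.45 (95% interval -0.74 to -0.17, adjusted p = 0.0679), which passed with DESeq2 (adjusted p = 0.026). The test of the difference between these effects gave 0.50 (95% interval -0.03 to 1.02, adjusted p = 0.34). Most hepatocyte markers moved with Cideb under the drug, with 8 of the 10 called higher. The 10 summed to 86800 to 124000 CPM in HF_TZD_KO and 48600 to 59000 CPM in HF_TZD_C. Most of these sums was Alb, with 58200 to 84200 CPM in HF_TZD_KO and 27900 to 36400 CPM in HF_TZD_C. The part of the hepatocyte share in the Cideb result was not tested. Cideb also shares 1456 bases with Nop9 on the other strand. Per kilobase, the level of Cidec over Cideb was 1.91 ± 1.17 in HF_TZD_KO, 16.2 ± 1.87 in HF_TZD_C, 3.66 ± 1.25 in HF_KO, 8.81 ± 1.01 in HF_C and 1.75 ± 1.40 in LF_C, or 1.12 ± 0.738 without LF_C replicate 2.

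Fitm2 (ENSMUSG00000048486, chromosome 2, 163466379 to 163472629, minus strand), which is widely expressed and needed for droplets to bud, had a narrow range within each HFCF group and a wider one in LF_C. It had 67.0, 68.4, 72.2, 68.0 and 81.9 CPM in HF_TZD_KO mice, against 142, 161, 156, 135 and 142 CPM in HF_TZD_C mice. Without the drug it had 68.5, 75.6, 82.4, 70.1 and 57.7 CPM in HF_KO mice, against 96.2, 107, 99.5, 103 and 83.3 CPM in HF_C mice. LF_C mice had 113, 158, 137 and 107 CPM. Both knockout groups overlapped with each other and lay below HF_C by a small margin (at most 82.4 CPM in HF_KO, against at least 83.3 CPM in HF_C). HF_C in turn lay below HF_TZD_C and, by a small margin, LF_C. The knockout log2 fold change was -1.04 (SE 0.07, adjusted p = 3.76e-06, 2.06-fold lower) under rosiglitazone and -0.46 (SE 0.09, adjusted p = 0.0299, 1.37-fold lower) without it. The second was lost when HF_C replicate 1 or 4 or HF_KO replicate 1, 2 or 4 was left out (adjusted p up to 0.095). Rosiglitazone gave 0.59 (SE 0.07, adjusted p = 0.000337) in control mice and 0.02 (95% interval -0.18 to 0.22) in knockout mice.

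Fitm1 (ENSMUSG00000022215, chromosome 14, 55575617 to 55576952, plus strand), its relative known mainly from skeletal muscle, had 16.3, 16.7, 13.4, 16.2 and 12.3 CPM in HF_TZD_KO mice, against 39.1, 31.4, 36.9, 28.9 and 35.0 CPM in HF_TZD_C mice. Without the drug it had 18.9, 17.3, 19.9, 23.7 and 15.1 CPM in HF_KO mice, against 30.8, 43.5, 22.7, 33.3 and 30.1 CPM in HF_C mice. The groups did not overlap under the drug, and without it 1 library of each crossed the other's range. The knockout log2 fold change was -1.19 (SE 0.11, adjusted p = 2.32e-05) under rosiglitazone and -0.75 (SE 0.15, adjusted p = 0.0347) without it. The second was lost in 7 of 10 fits that left out a library, those without HF_C replicate 1, 4 or 5 or HF_KO replicate 1, 2, 3 or 5 (adjusted p up to 0.0959). Rosiglitazone gave 0.10 (95% interval -0.20 to 0.39) in control mice and -0.33 (adjusted p = 0.246) in knockout mice. Fitm1 shares 375 bases with the antisense gene Gm15932, and Fitm2 shares 673 with 2310001K24Rik.

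Whether the knockout effect depended on the drug was tested on the 20 HFCF libraries as the log2 fold change under rosiglitazone minus that without it. Cidec gave -1.43 (SE 0.32, adjusted p = 0.0179) and Fitm2 -0.57 (SE 0.12, adjusted p = 0.0131), so for both the knockout libraries lay further below their controls under the drug. These were 2 of 9 members, where 2.45% of 15365 genes passed. Plin4 gave -0.88 (SE 0.29), which did not pass (adjusted p = 0.118) except without HF_TZD_KO replicate 1 (0.0437). The interval for Cidea was -1.73 to 1.07 and that for Fitm1 was -0.85 to 0. Without any 1 of the 20 libraries both calls held, at an adjusted p of at most 0.0378 for Cidec and 0.0382 for Fitm2, and in a single fit of all 24 libraries Cidec did not pass (adjusted p = 0.104). The hepatocyte markers differed in the same test, with 3 of 10 higher (Ttr, Alb and Cps1) and a median of 0.55, and their part in the result was not tested.

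The diet was compared in mice of control genotype, HF_C against LF_C. Cidea rose by 3.69 on the log2 scale (SE 0.70, adjusted p = 0.00142, 12.9-fold higher), and Cidec rose by 2.08 (SE 0.37, adjusted p = 0.000916, 4.21-fold higher). Without LF_C replicate 2 these were 4.55 and 2.66. Fitm2 was lower in HF_C, with -0.41 (SE 0.12, adjusted p = 0.0153). Scaling by library totals alone put the median over all genes at 0.237 in this comparison, against -0.027 with TMM, and under it Fitm2 gave -0.15 and did not pass (adjusted p = 0.389). Plin4 gave 0.89 (95% interval 0.12 to 1.67) and missed the threshold (adjusted p = 0.0642), but passed without LF_C replicate 2 (1.51, adjusted p = 0.000513), and in 4 of the other settings. Plin2, Plin3, Plin5, Cideb and Fitm1 did not pass, with -0.20, 0.15, -0.26, -0.50 and 0.14, though Plin3 passed with library totals alone (0.41, adjusted p = 0.00776). Among markers of cell types, 7 of 10 macrophage and 7 of 8 stellate cell genes were higher in HF_C, while the macrophage gene Timd4 was lower (-2.63, adjusted p = 0.00638), with sums of 564 to 944 CPM in HF_C and 264 to 484 CPM in LF_C for macrophages, and 635 to 946 CPM in HF_C and 179 to 267 CPM in LF_C for stellate cells. The hepatocyte sum was 56900 to 66100 CPM in HF_C and 90600 to 124000 CPM in LF_C, with 6 of 10 lower, and the part of this cell make-up in the results was not tested.

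Setting the other HFCF groups against LF_C, which is not among the comparisons the series names, placed each group relative to the low-fat liver. In HF_TZD_KO, Plin2 (-0.66, SE 0.14, adjusted p = 0.0125), Plin4 (-1.64), Fitm1 (-0.94) and Fitm2 (-0.85) were lower than in LF_C, 4 of 9 members where 15.2% of 14361 genes passed. Cidea (0.82, 95% interval -0.92 to 2.57) and Cidec (0.06, 95% interval -0.92 to 1.04) did not pass there. In HF_TZD_C, Plin4 (1.53), Cidea (4.28) and Cidec (2.53) were higher and Plin2 (-0.26) and Cideb (-0.94) lower, 5 of 9 where 46.3% of 14772 genes passed. In HF_KO, Cidec (1.05) was higher and Plin4 (-1.38), Plin5 (-0.60), Fitm1 (-0.61) and Fitm2 (-0.86) lower, 5 of 9 where 36.4% of 14664 genes passed. Fitm1 and Fitm2 were thus below the low-fat level in both knockout groups, and neither passed above it in HF_TZD_C. With library totals alone Fitm1 in HF_KO missed the threshold (-0.40, adjusted p = 0.0552), and both Fitm1 (0.52) and Fitm2 (0.46) passed above the low-fat level in HF_TZD_C. Fitm2 also passed above that level in HF_TZD_C without LF_C replicate 2 (edgeR adjusted p = 0.0249), and Fitm1 without LF_C replicate 1 (adjusted p = 0.0326). LF_C replicate 2 set the size of the Plin4 changes: without it they were -1.02 in HF_TZD_KO, 2.14 in HF_TZD_C and -0.76 in HF_KO. Without the same mouse Cidec was 3.12 in HF_TZD_C and 1.64 in HF_KO, Cidea was 5.14 in HF_TZD_C, and Plin5 in HF_KO was -0.37 and did not pass. In HF_TZD_KO Cidea was then 1.67 and Cidec 0.65, again short of the threshold. Leaving out LF_C replicate 4 brought Cideb in HF_TZD_C to -0.59. The Plin4 call in HF_TZD_KO was lost without HF_TZD_KO replicate 3 (adjusted p = 0.0508). The calls of Plin2 in HF_TZD_C and of Plin5 in HF_KO held in 3 of 9 fits that left out a library, and that of Cidec in HF_KO in 1 of 9. Scaled by library totals alone, the median over all genes moved to 0.255 in HF_TZD_C, against -0.01 with TMM, and Plin2 there gave -0.0033 and did not pass.

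**Figure D4:**
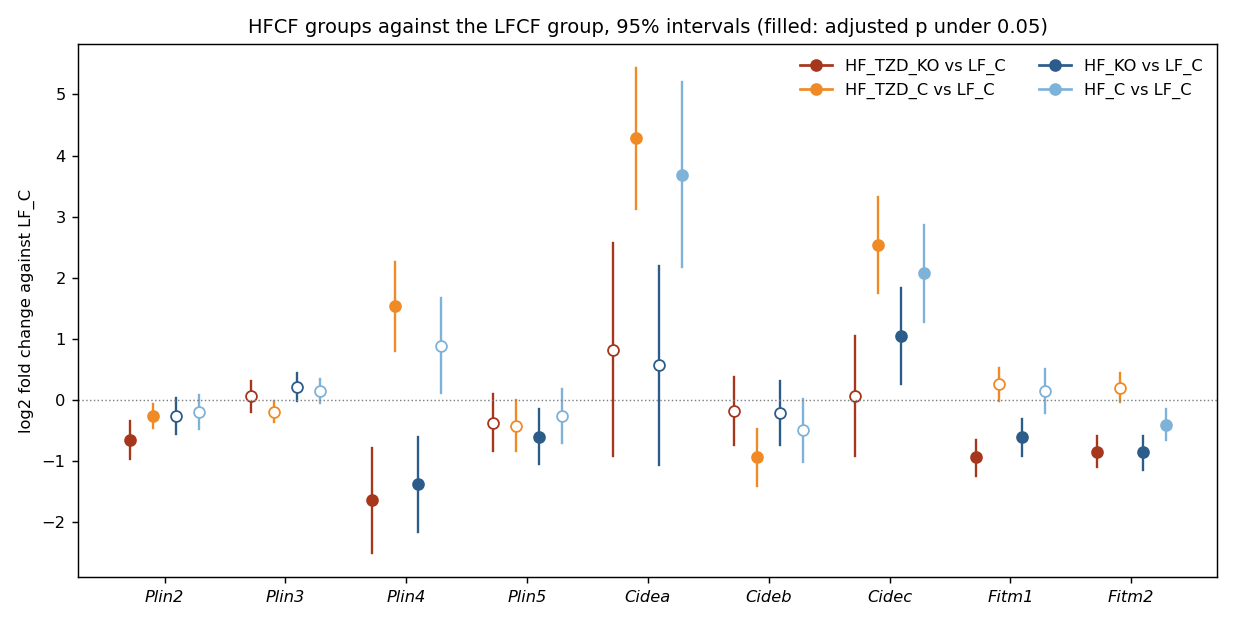
Points are fitted log2 fold changes of each HFCF group against LF_C for each gene, filled where adjusted p was under 0.05, with 95% intervals as lines. Cidea and Cidec lie highest in HF_TZD_C (4.28 and 2.53) and HF_C (3.69 and 2.08), and Plin4 lies below 0 in HF_TZD_KO (-1.64) and HF_KO (-1.38).

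Other genes of the droplet were read from lists of lipases and their regulators (11 of 12 tested), genes of droplet formation (16 tested) and further droplet proteins (19 of 20 tested). In HF_KO against HF_C, Agpat6, the glycerol phosphate acyltransferase now named Gpat4, was the 1 gene of the formation list that passed (-0.37, adjusted p = 0.0347). That call held in 2 of 10 fits that left out a library, those without HF_C replicate 2 or 3, and was lost in a single fit of all 24 libraries. Of all genes 1.02% passed there. By edgeR 0 of 11 lipolysis genes and 0 of 19 further droplet proteins passed there, with 3 of each list at an unadjusted p under 0.05, and DESeq2 called 0 of either list and 2 of the formation list. The list medians there were -0.13, -0.06 and 0.02, against 0 over all genes. In HF_TZD_KO against HF_TZD_C, where 16.3% of all genes passed, 3 of 11 lipolysis genes fell and 1 rose. Pnpla2, which encodes the lipase ATGL, gave -0.96 (adjusted p = 6.9e-06), Abhd6, a monoacylglycerol lipase, -1.12 and Pnpla3, a droplet protein tied to fatty liver in humans, 1.77. Of the 16 formation genes 4 fell, among them Agpat9 (Gpat3, -1.05), Agpat6 (-0.94) and Mogat1, which makes diacylglycerol (-1.99), and 5 rose. Most of the calls of formation genes that rose were lost with library totals alone, and the least stable held in 2 of 10 fits that left out a library. Of the 19 droplet proteins 3 passed, a share near that of all genes: Hsd17b11 was lower (-0.83), and Hsd17b13 (0.36) and Aup1 (0.25) were higher, with calls of these that held in 5 and 2 of 10 fits that left out a library and were lost with library totals alone. The genes that fell with Plin4, Cidec and Fitm2 under the drug thus included both enzymes that build triglyceride and a lipase that breaks it down.

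Rosiglitazone in control mice raised 5 of the 11 lipolysis genes, where 5.3% of all genes passed, with a median of 0.26 against -0.01 over all genes. Pnpla2 gave 0.77, Ces1d 0.68 and Lipe, which encodes hormone-sensitive lipase, 0.51. The least stable of these 5 calls held in 4 of 10 fits that left out a library. The drug raised 2 of 16 formation genes there, Agpat6 (0.77) and Agpat9 (0.46). In a single fit of all 24 libraries the calls of Lipe and Agpat9 were lost. Among the droplet proteins the drug raised Hsd17b11 (0.59) and lowered Hsd17b13 (-0.43), a droplet protein of hepatocytes. The Hsd17b13 call held in 5 of 10 fits that left out a library. In knockout mice, where 0.735% of all genes passed, Pnpla3 was higher with the drug (1.39, adjusted p = 0.0453), a call that held in 2 of 10 fits that left out a library, those without HF_TZD_KO replicate 1 or 5 (adjusted p up to 0.122). By edgeR 0 of the 16 formation genes and 0 of the 19 further droplet proteins passed there, with 6 and 2 at an unadjusted p under 0.05, and DESeq2 called 2 and 1. In the test of the difference, Pnpla2 (-0.63), Abhd6 (-0.75), Agpat9 (-0.76) and Hsd17b11 (-0.72) passed with Cidec and Fitm2, where 2.45% of all genes passed. The Agpat9 call was lost in a single fit of all 24 libraries. On the diet, 7 of 11 lipolysis genes were lower in HF_C than in LF_C and 1 was higher, with a median of -0.52, led by G0s2 (-1.16), an inhibitor of ATGL, Ces1f (-0.99) and Ces1d (-0.89). Of the formation list 7 were lower, among them Lpin1 (-1.65) and Dgat2 (-0.82), which catalyse late steps of triglyceride synthesis, and 2 higher, among them Lpcat1 (0.93). Of the droplet proteins 8 of 19, a share near that of all genes, were lower, such as the gene listed as 1110057K04Rik (Ldah, -0.53). Cidea and Cidec rose with the diet while these lists moved down on balance with TMM, on a background where 40.6% of genes passed. Library totals alone put the median over all genes at 0.237. Most lower calls of the formation list and the droplet proteins were lost there, as were some of the lipolysis list. Those of G0s2, Ces1f, Ces1d, Lpin1, Dgat2 and 1110057K04Rik were kept.

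The members' patterns were compared over the 24 libraries by Pearson's r of log2 CPM, which is given as a description because the libraries share groups. Cidea and Cidec were the most alike pair (r = 0.88, and 0.72 after subtracting group means), followed by Plin4 and Fitm1 (0.85, and 0.20 within groups). Fitm1 and Fitm2 had 0.77 over all libraries and 0.14 within groups, so their likeness lay between groups. Cideb ran against Cidea and Cidec (-0.75 for each, and -0.51 and -0.59 within groups). Plin2 was nearest to Plin3 within groups (0.76). Outside the members, among protein-coding genes of at least 5 CPM, the nearest to Cidec were Sptlc2 (0.95, and 0.78 within groups), Atp9a (0.94, 0.74) and Myo1c (0.94, 0.81). The nearest to Cidea were Atp9a (0.92, and 0.84 within groups), Gnai1 (0.91, 0.92) and Gprc5b (0.90, 0.78). Plin4 was nearest to Pigp (0.91, and 0.71 within groups), Unc119 (0.91, 0.42) and Ermp1 (0.90, 0.62). Fitm2 was nearest to Vnn1 (0.94, and 0.75 within groups), Slc25a10 (0.93, 0.44) and Abhd6 (0.93, 0.60). Among the genes most like Fitm1 were Abcc3 (0.91, and 0.42 within groups) and Unc119 (0.90, 0.58). The nearest to Plin2 was Ghitm (0.90, and 0.83 within groups), to Plin3 Cald1 (0.85, 0.72) and to Cideb Apoc4 (0.91, 0.85). Plin5 had no closer gene than Hexim1 (0.77, and 0.80 within groups).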

How the data were processed

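Whole-liver RNA of 24 mice was sequenced as libraries without strand information. Per the submitters' processing notes, the authors used STAR 2.6.1, HTSeq 0.6.1 and DESeq2 with GRCm38/mm10, and the annotation release is not given in the sources used here. The authors deposited raw read counts (whole numbers), from which every result starts. The authors' deposited normalized signal (counts divided by a size factor per sample), FPKM, log2 fold changes and p-values were not used for results. Their gene length in bases, of the unit other, gave CPM per kilobase. Joining the 5 deposited tables on the gene identifier gave 24137 genes, with 0 counts differing between tables.

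Pairs of groups were tested with edgeR 4.0.16 under R 4.3.3 (filterByExpr, minimum count 10 and total 15, TMM, quasi-likelihood, two-sided) and p-values were adjusted by Benjamini-Hochberg over all genes tested. The difference of the knockout effect used the 20 HFCF libraries. SE is the size of the log2 change over the root of the F statistic, and intervals are 95%. Library totals of 19.5 to 28.7 M reads make counting error small beside the spread between mice (pairs of replicates had a chi-square of 11.6 to 73.5 per degree of freedom). Replicates are separate mice per the labels. Named are the 10 members and Pparg, of each droplet list up to 3 genes with the smallest adjusted p, and for each member up to 3 protein-coding genes most like it by r (mean of at least 5 CPM, prior count 2). A gene that this rule names is not reported here. The members and lists were chosen with earlier results of these data known. List genes were matched by symbol or RefSeq synonym. Alternatives were RLE factors, library totals alone, no filter, DESeq2 1.42.0, a single fit of 24 libraries, a block for replicate numbers and leaving out each library. The code was tested on simulated data.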

Additional observations from a re-analysis of the deposited data

Results flagged for a closer look

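Of 50 combinations of gene and group examined with Dixon's test, 2 held a mouse far from the rest of its group, and chance alone flags about 1 in 20. Plin2 had 1310 CPM in HF_KO replicate 4, where the other 4 mice had 808 to 952 CPM. In HF_KO against LF_C, Plin2 gave -0.26 and did not pass by edgeR (adjusted p = 0.165). Without HF_KO replicate 4 it passed as lower (adjusted p = 0.0118). Cideb had 32.8 CPM in LF_C replicate 4, where the other 3 mice had 15.1 to 15.7 CPM.

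The knockout effect under rosiglitazone differed from that without it, by the test of the difference, for Cidec (-1.43 on the log2 scale) and for Fitm2 (-0.57). Both differences were negative, with rosiglitazone-treated control livers the highest group for either gene.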

How the results depend on the processing

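Of 34 called changes of the members, 0 changed sign under any alternative. Of the 1350 alternative values of the 81 member changes, 1246 kept direction and side of the threshold, 46 lost the call, 28 gained it and 30 changed sign. The count of members that passed was 2 in a single fit of all 24 libraries for HF_TZD_C against HF_C (Plin3 and Fitm2) and 1 for the difference (Fitm2). The replicate block left 3 in HF_KO against LF_C (Plin4, Fitm1 and Fitm2). It also lost Fitm2 in HF_C against LF_C (-0.341, adjusted p = 0.0529) and the Pnpla3 call in HF_TZD_KO against HF_KO, and gained Plin4 (adjusted p = 0.046) and Cideb (-0.437, adjusted p = 0.042) in HF_C against LF_C and Plin2 in HF_TZD_KO against HF_TZD_C (-0.406, adjusted p = 0.0355). Leaving out libraries for the list genes and for ratios was added after seeing the data. In all 36 pairs of same-numbered libraries the correlation of deviations ran from -0.18 to 0.15 and was over 0.1 in 4. Correlations over few mice per group cannot exclude a batch that same-numbered libraries share. With library totals alone the sign changed for Plin2 and Plin5 in HF_C against LF_C (0.0512 and 0.00307), Cideb and Fitm2 in HF_TZD_KO against HF_KO (-0.0799 and -0.0967), Plin5 in HF_TZD_KO against HF_TZD_C (-0.101), Cideb in HF_KO against LF_C (0.0283) and Plin3 in HF_TZD_C against LF_C (0.074), and the cause was not tested.

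Leaving out each library gave 3 to 5 members that passed in HF_KO against HF_C, 0 to 1 in HF_TZD_KO against HF_KO and 3 to 5 in HF_KO against LF_C. Changes that crossed 0 were Plin2 (-0.204 to 0.0235) and Plin3 (-0.0153 to 0.0977) in HF_KO against HF_C, and Plin2 (-0.137 to 0.00983) and Fitm1 (-0.00615 to 0.232) in HF_TZD_C against HF_C. In HF_TZD_KO against HF_KO they were Cidea (-0.19 to 0.752), Cideb (-0.082 to 0.175) and Fitm2 (-0.044 to 0.082), and in HF_TZD_KO against HF_TZD_C Plin5 (-0.0141 to 0.134). Against LF_C they were Cideb in HF_KO (-0.344 to 0.147), and Plin3 (-0.000165 to 0.145), Cideb (-0.292 to 0.176) and Cidec (-0.224 to 0.648) in HF_TZD_KO. For the difference it was Cidea (-0.755 to 0.165).

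Over all genes, HF_KO against HF_C called 152 genes, against 370 with DESeq2, 90 in a single fit of 24 libraries and 64 to 186 without a library. HF_TZD_C against HF_C called 792, against 1218, 387 and 497 to 930 in the same settings and 386 with the replicate block. HF_TZD_KO against HF_KO called 107, against 651, 440 and 0 to 223, with 0 under the block, 220 with library totals alone and 201 without a filter. HF_TZD_KO against HF_TZD_C called 2387, against 3656 with library totals alone and 1569 to 2695 without a library. HF_TZD_KO against LF_C called 2189, against 4372 in the single fit and 1112 to 3459 without a library. The difference called 376, against 728, 202 and 191 to 467, with 236 under the block. With library totals alone the split of higher and lower calls became 5309 and 886 in HF_C against LF_C (3168 and 2835 with TMM), 4543 and 753 in HF_KO against LF_C (2934 and 2397), 6002 and 1187 in HF_TZD_C against LF_C (3643 and 3191) and 1406 and 382 in HF_TZD_KO against LF_C (1388 and 801). In the same scaling it became 56 and 118 in HF_KO against HF_C (72 and 80 with TMM), 740 and 2916 in HF_TZD_KO against HF_TZD_C (1246 and 1141), 51 and 169 in HF_TZD_KO against HF_KO (62 and 45) and 163 and 387 for the difference (239 and 137).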
